A study of Nothobranchius furzeri with 8 samples.

Results

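The genome annotation of the turquoise killifish Nothobranchius furzeri used for these counts holds 2 genes that the study names hbp1, Nfu_g_1_008273 and Nfu_g_1_011786, among 23546 genes in all. Both are paired with the same zebrafish ortholog, and the study lists hbp1 among the predicted targets of the microRNA miR-29 that were changed when miR-29 was antagonised. They were therefore chosen from the comparison between the groups, so that their fold changes are given as a description and without a test of their own. The study took its predicted targets from a list for zebrafish genes. Whether either killifish copy of hbp1 carries a miR-29 site was not analysed here. RNA came from the brain of 4 kif5a::miR-29sponge fish (sponge-29) and of 4 MZM-04/10p fish without the transgene (wild-type), all at 12 weeks of age. The study names the MZM-0410 strain for its transgenic fish, while the labels of sponge-29 name no strain. In sponge-29 an F1 transgene under a zebrafish kif5aa promoter fragment, which is active in neurons, expresses eGFP fused to repeated miR-29 binding sites. The sponge thus acts in neurons, whereas the RNA came from the brain with all its cell types. The labels do not give the sex of the fish, and they name no batch.

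HBP1 (HMG-box transcription factor 1) is a sequence-specific DNA-binding protein that mostly represses transcription. In mammals it restrains Wnt and beta-catenin signalling by blocking the binding of TCF factors to DNA, recruits the SIN3 corepressor, binds the retinoblastoma protein, and slows the entry into the cell cycle during differentiation and senescence. A microRNA such as miR-29 pairs through its seed with sites in the 3' end of a messenger RNA and lowers its stability or translation, and a sponge transcript competes for it with the natural targets. How the 2 genes differ in sequence was not analysed here.

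Both hbp1 copies were expressed in every fish, at unequal levels, and both passed the filter on low counts. RPKM, the read count scaled to gene length and to the depth of the library, is used where levels of both genes are compared, since it takes gene length into account. Nfu_g_1_008273 had 18.9, 17.7, 14.6 and 16.7 RPKM in sponge-29 libraries 46, 47, 48 and 49, against 8.77, 11.5, 9.16 and 7.60 RPKM in wild-type libraries 42, 43, 44 and 45. The lowest sponge-29 fish (library 48) lay above the highest wild-type fish (library 43), so the groups did not overlap. Nfu_g_1_011786 had 4.97, 3.70, 3.11 and 3.09 RPKM in sponge-29 libraries 46 to 49, against 1.83, 2.81, 1.50 and 1.89 RPKM in wild-type libraries 42 to 45. For this copy too the groups were apart, but the lowest sponge-29 value exceeded the highest wild-type value only by 0.278 RPKM. By counts scaled to library size, 11.4% of the genes tested had all sponge-29 fish above all wild-type fish. As both genes were chosen from this contrast, their separation is a description. Library 46 was the highest sponge-29 fish and library 43 the highest wild-type fish for both copies. By CPM, library 46 was the highest sponge-29 fish in 25.3% of all genes tested, and library 43 the highest wild-type fish in 29.1%.

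**Figure D1:**
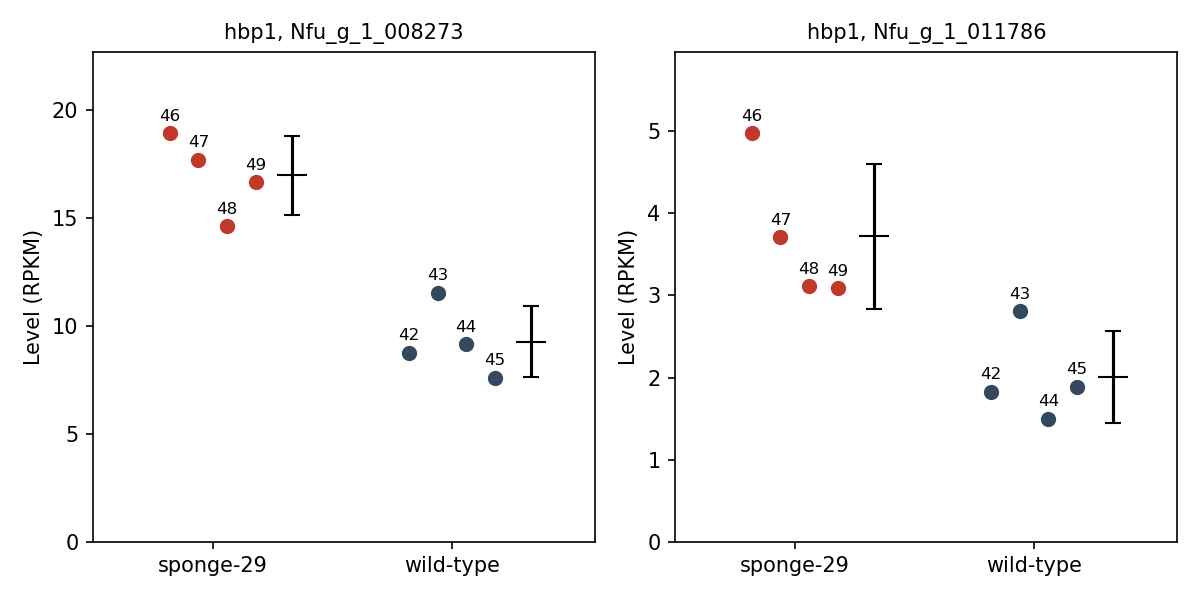
Level of the hbp1 genes Nfu_g_1_008273 (left) and Nfu_g_1_011786 (right) in RPKM, with 1 point per fish, its library number, and the mean with SD of each group of 4 beside the points. The sponge-29 fish lie between 14.6 and 18.9 RPKM on the left, above all wild-type fish, and the scale on the right is smaller because this copy was expressed at a lower level.

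The copies were similar in length and differed in level. The ratio of counts to RPKM gives 3379 bases for Nfu_g_1_008273 and 3616 bases for Nfu_g_1_011786, a ratio of 1.07, and both are longer than the median of 2654 bases over the 19536 genes tested. Per length, Nfu_g_1_008273 was 4.67-fold higher than Nfu_g_1_011786 on average over the 8 fish (mean log2 ratio of RPKM within a fish 2.22 ± 0.23, SD, n = 8). It was the higher copy in 8 of 8 fish, with ratios between 3.81-fold (sponge-29 library 46) and 6.11-fold (wild-type library 44). An exact two-sided sign-flip permutation test over fish gave p = 0.00781, the smallest that 8 fish allow. In the wild-type brain the major copy, Nfu_g_1_008273, had a higher RPKM than 57.2% of the genes tested, while the minor copy, Nfu_g_1_011786, was above 21.2% of them.

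The share of each copy in all hbp1 counts shows the same ratio with its counting error. The minor copy Nfu_g_1_011786 took 21.9% of the hbp1 counts in sponge-29 library 46 (95% Wilson interval 20.1 to 24.0%), 18.3% in library 47 (16.4 to 20.4%), 18.5% in library 48 (16.4 to 20.8%) and 16.5% in library 49 (14.6 to 18.7%). In wild-type it took 18.2% in library 42 (15.7 to 21.1%), 20.7% in library 43 (18.4 to 23.1%), 14.9% in library 44 (12.7 to 17.4%) and 21.0% in library 45 (18.3 to 24.0%). The groups overlapped in this share, and its highest and lowest fish were in different groups. These intervals cover counting error only. Across the 8 fish the log2 ratio of the counts had an SD of 0.23, beside 0.0839 to 0.135 from counting error alone. The rules by which reads matching more than 1 place were counted are not given in the sources used here, so the values of either copy are uncertain to the extent that the copies share sequence.

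Both copies were higher in sponge-29 by nearly the same factor. In CPM, the count scaled to library size but not to gene length, Nfu_g_1_008273 averaged 58.1 ± 6.69 in sponge-29 fish, against 31.0 ± 5.35 in wild-type fish (SD, n = 4 each), a log2 fold change of 0.91 with a standard error of 0.13. Nfu_g_1_011786 averaged 13.6 ± 3.33 CPM in sponge-29 fish, against 7.17 ± 1.98 CPM in wild-type fish (SD, n = 4 each), a log2 fold change of 0.93 with a standard error of 0.22. These correspond to 1.88-fold and 1.90-fold higher levels. Summed over both genes, hbp1 had 71.7 ± 9.67 CPM in sponge-29 fish, against 38.1 ± 6.98 CPM in wild-type fish (SD, n = 4 each). Since the whole brain was used, a higher level per cell and a larger share of cells that express hbp1 cannot be told apart.

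Both copies were called, that is, had an adjusted p below 0.05 (edgeR, quasi-likelihood, Benjamini-Hochberg over 19536 genes), where 6.15% of the genes were called as higher in sponge-29 and 12.0% in either direction. In both, the 4 sponge-29 fish lay above the 4 wild-type fish in CPM, as in 11.4% of the genes tested. Nothing is read from these counts, since the genes were chosen from this contrast. Of the genes tested, 1.48% had a larger log2 fold change than Nfu_g_1_008273 and 1.43% a larger one than Nfu_g_1_011786. Left out in turn, no single library took Nfu_g_1_008273 off the list of called genes, and its log2 fold change stayed between 0.83 and 1.03. For Nfu_g_1_011786 the call was lost in 6 of the 8 fits. Its log2 fold change was then 0.88 without wild-type library 42, 0.81 without library 44 and 0.90 without library 45, and 0.74 without sponge-29 library 46, 0.93 without library 47 and 1.00 without library 49. The number of called genes in all fell with it, to 1153, 886 and 427 without libraries 42, 44 and 45 and to 1480, 441 and 990 without libraries 46, 47 and 49, against 2341 with all fish.

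**Figure D2:**
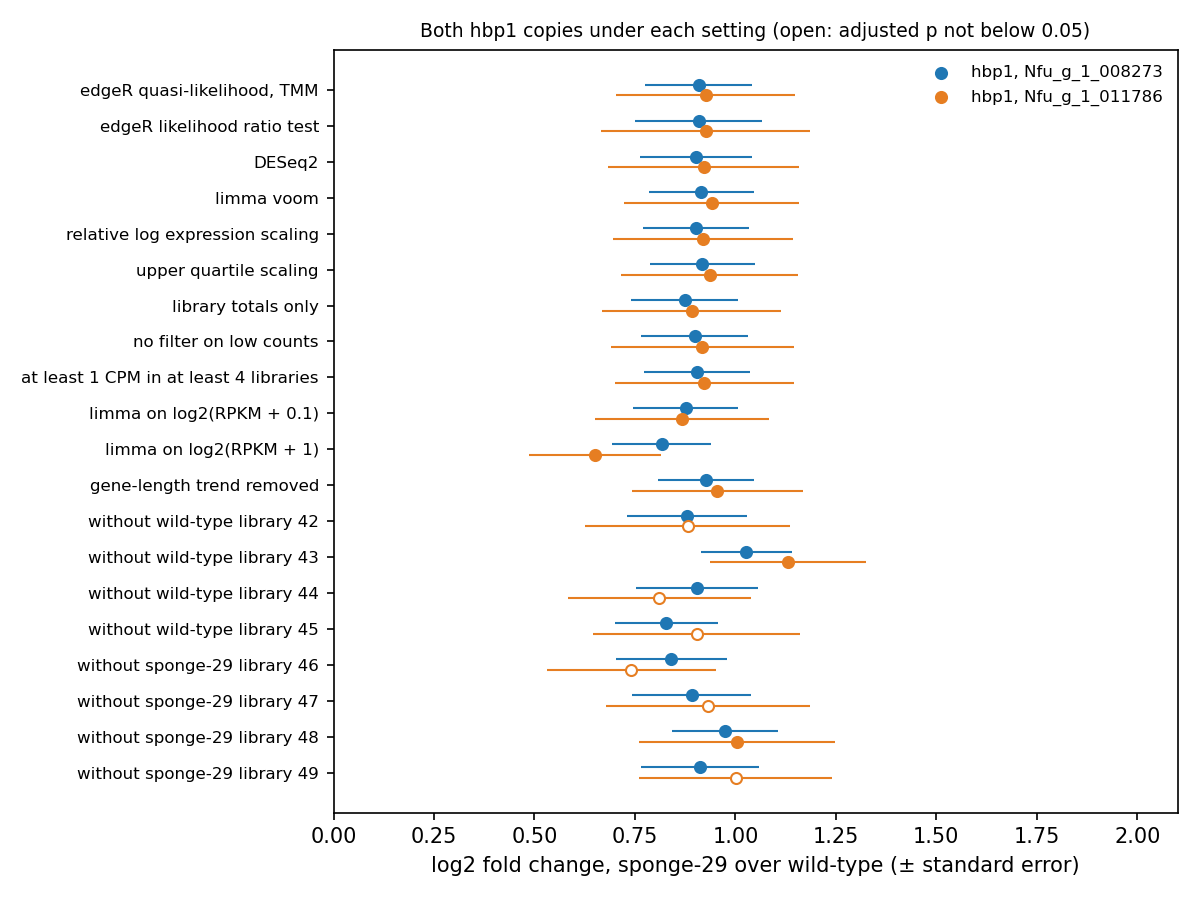
Log2 fold change of both hbp1 genes, sponge-29 over wild-type, with its standard error, under each statistical setting and with each library left out; open points are fits in which the gene had an adjusted p of 0.05 or more. All values are positive, from 0.65 to 1.13, and the open points belong to Nfu_g_1_011786 alone.

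The number of reads behind the minor copy was small. Nfu_g_1_011786 had 379, 262, 222 and 201 counts in sponge-29 libraries 46 to 49, against 143, 240, 135 and 160 counts in wild-type libraries 42 to 45. As raw counts the groups overlapped, because wild-type library 43 exceeded sponge-29 libraries 48 and 49, and they came apart only after scaling to library size. The margin in CPM between sponge-29 library 48 (11.2) and wild-type library 43 (9.99) was 1.12-fold, with a counting error of 6.71% and 6.45% on these values. Nfu_g_1_008273 had 1348, 1170, 976 and 1014 counts in sponge-29 libraries 46 to 49, against 642, 921, 771 and 602 counts in wild-type libraries 42 to 45, and its groups did not overlap as raw counts either. Its margin in CPM was 1.29-fold (49.3 in library 48 against 38.3 in library 43).

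In single fish the change of the copies differed by 0.01 to 0.38 on the log2 scale, least in sponge-29 library 48 and most in wild-type library 44. Relative to the wild-type mean of each gene, log2 CPM in sponge-29 was higher by 1.09 (Nfu_g_1_008273) and 1.38 (Nfu_g_1_011786) in library 46, and by 0.97 and 0.94 in library 47. The same values were 0.69 and 0.68 in library 48, and 0.91 and 0.70 in library 49, in the same order of the genes. In wild-type, library 43 stood at 0.32 and 0.51, library 42 at -0.07 and -0.11, library 44 at 0.00 and -0.37, and library 45 at -0.25 and -0.03. The fish with the highest value of its group was thus the same for both copies, while the lowest wild-type fish was library 45 for Nfu_g_1_008273 and library 44 for Nfu_g_1_011786. Over all genes tested, library 46 was the highest of its group in 25.3% and library 43 in 29.1%. As the fish fell into separate groups of 4, no correlation between the copies was computed.

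**Figure D3:**
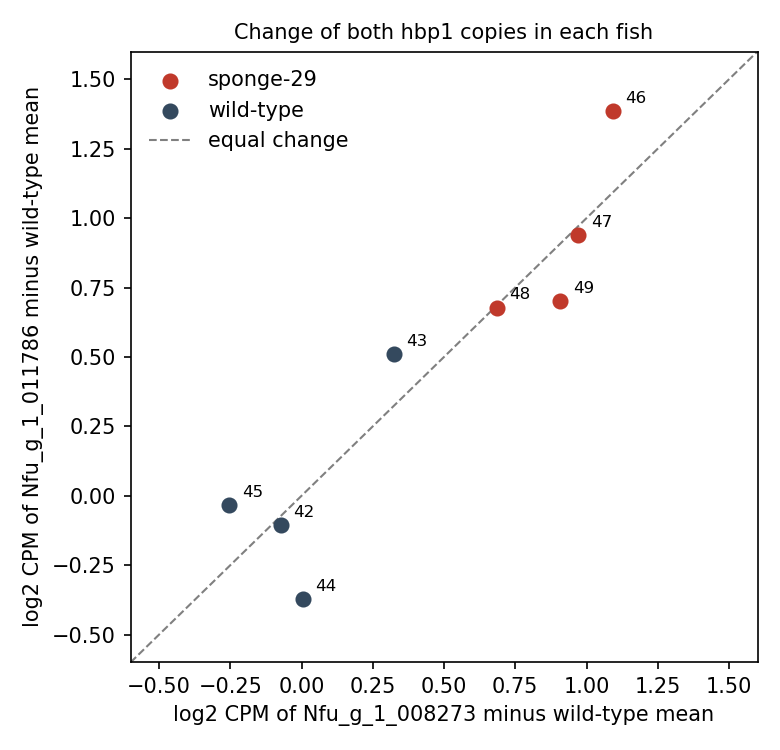
Log2 CPM of both hbp1 genes in each fish after subtraction of the wild-type mean, Nfu_g_1_008273 across and Nfu_g_1_011786 upwards, with library numbers and the line of equal change. The 4 sponge-29 fish lie at 0.68 or more on both axes, and wild-type library 44 lies farthest from the line, by 0.38.

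The ratio of the copies was therefore nearly the same in both groups. The log2 ratio of counts, Nfu_g_1_008273 over Nfu_g_1_011786, averaged 2.12 ± 0.21 in sponge-29 and 2.13 ± 0.28 in wild-type (SD, n = 4 each), a difference of -0.018 where fish of a group spread by 0.25. The values in sponge-29 were 1.83, 2.16, 2.14 and 2.33 in libraries 46 to 49, and those in wild-type 2.17, 1.94, 2.51 and 1.91 in libraries 42 to 45, so that the groups overlapped over most of their range. With 1 library left out in turn the difference lay between -0.092 and 0.11, without a constant sign. This ratio is taken within a library and does not depend on depth or scaling. With 4 fish in a group, a difference of the order of this spread could not be seen.

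Both genes varied more between fish of the same group than most genes of their level. The coefficient of variation within groups was 14.7% for Nfu_g_1_008273, against a median of 9.13% over the 1956 genes whose mean CPM was within 1.25-fold of it, and 84.3% of those genes varied less. For Nfu_g_1_011786 it was 26.1%, against a median of 13.2% over 1828 genes of like CPM, 88.7% of which varied less. Counting error alone gave 2.72 to 4.08% for the major copy and 5.14 to 8.61% for the minor copy, so most of this spread was between the fish or their libraries.

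Gene length moved with the comparison in these libraries. From the shortest to the longest of 10 classes of gene length, the median log2 fold change fell to -0.17 in the longest class, against 0.10 in the shortest. Both hbp1 copies are in the seventh class (3294 to 4119 bases), whose median log2 fold change was 0.00, and 6.55% of its genes were called as higher in sponge-29. Among genes within 10% of the length of Nfu_g_1_008273, 6.78% were called as higher, and 6.89% for Nfu_g_1_011786. With each library's trend with gene length removed, the log2 fold changes were 0.93 and 0.96 for Nfu_g_1_008273 and Nfu_g_1_011786, against 0.91 and 0.93 without this step.

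**Figure D4:**
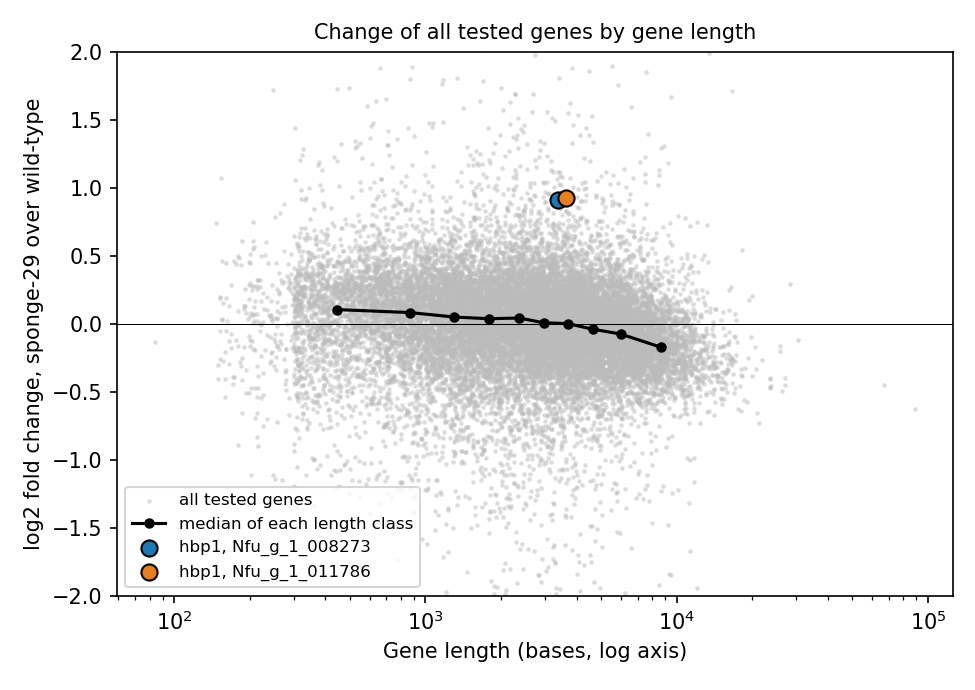
Log2 fold change of all 19536 tested genes, sponge-29 over wild-type, against gene length on a log axis, with the median of 10 length classes as a line and both hbp1 genes as large points. The medians fall from short to long genes, and both hbp1 genes, at 3379 and 3616 bases, lie near 0.9 where the median is near 0; 109 genes beyond a log2 fold change of 2 in either direction are not drawn.

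Depth also differed between the groups, and 3 of the 7 cell markers followed were called, where 12.0% of all genes tested were called in either direction. The part of depth and of cell types in the hbp1 values was not tested. Between 18014090 and 21081878 reads were counted in the sponge-29 libraries, against 21665735 to 24902251 in the wild-type libraries, with no overlap. Marker genes could be followed only where the study pairs a symbol with an identifier, which it does mainly for genes it lists as changed. Of 11 neuronal markers 3 had an identifier, elavl2, snap25a and nefl, and all 3 were expressed, with a summed level from 388 to 423 CPM in sponge-29 fish, against 273 to 335 CPM in wild-type fish. Of these, 2 of the 3, elavl2 and snap25a, were called as higher in sponge-29, where 6.15% of all genes tested were. The markers come mainly from the study's list of changed genes, so their calls are a description. The secreted ependymal and meningeal proteins epd and ptgdsb are 2 of 4 listed markers, and neither was called. They summed to between 5570 and 7920 CPM in sponge-29 and to between 1730 and 4770 CPM in wild-type. Most of this sum was epd, with a mean of 6380 CPM in sponge-29, against 130 CPM for ptgdsb. In each gene the sponge-29 fish lay above the wild-type fish in CPM, as in 11.4% of the genes tested. The log2 fold changes were 0.88 (epd) and 0.65 (ptgdsb). The oligodendrocyte factor sox10, 1 of 7 listed markers, was at 45.2 to 57.8 CPM in sponge-29 and at 32.8 to 42 CPM in wild-type, and was called as higher. ITGAM, an integrin of microglia and macrophages and 1 of 5 listed markers, was at 4.95 to 16.2 CPM in sponge-29 and at 10.2 to 94.6 CPM in wild-type, and was not called. Markers of radial glia, blood and endothelium had no identifier and were not analysed here. No marker followed was at 0.

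The genes followed that work with HBP1 in mammals went in both directions. The list mixes partners of HBP1 with targets that it activates or represses, so no shared direction is implied. Of 39 symbols of partners and targets, 9 had an identifier, again mainly through the study's list of changed genes, so that their calls are not independent evidence. Of these 9, 3 were called as higher and 6 as lower in sponge-29 by edgeR's quasi-likelihood test. Of all genes tested 12.0% were called in either direction. The median log2 fold change of the 9 was -0.42. It was -0.006 over all genes tested, which were not chosen for a change, so the 2 medians are not like for like. The 3 higher genes were mapk14b, cdkn1a and h1f0. The cell-cycle inhibitor cdkn1a (Nfu_g_1_020871) had 14.5 ± 1.72 CPM in sponge-29 fish, against 7.62 ± 1.80 CPM in wild-type fish (SD, n = 4 each), with a log2 difference of 0.93 (standard error 0.18, edgeR quasi-likelihood with Benjamini-Hochberg adjusted p = 0.0199). The linker histone gene h1f0 (Nfu_g_1_022942), whose mammalian counterpart HBP1 activates, had 454 ± 202 CPM in sponge-29 fish, against 150 ± 82.6 CPM in wild-type fish (SD, n = 4 each), and the groups overlapped. The p38 kinase gene mapk14b, whose human counterpart phosphorylates HBP1, had a log2 fold change of 0.35 (standard error 0.07).

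The listed genes that were lower, partners and targets, encode chromatin proteins. The histone methyltransferase gene ezh2 (Nfu_g_1_011320), which HBP1 represses in human cells, had 20.5 ± 2.96 CPM in sponge-29 fish, against 37.1 ± 5.23 CPM in wild-type fish (SD, n = 4 each), with a log2 difference of -0.86 (standard error 0.13, edgeR quasi-likelihood with Benjamini-Hochberg adjusted p = 0.0115). The acetyltransferase genes ep300a, ep300b, crebbpa and crebbpb, whose human counterparts acetylate HBP1, had log2 fold changes of -0.52, -0.65, -0.53 and -0.41. The gene sap130a, of the SIN3 complex, had -0.42. These 4 acetyltransferase genes are long, from 8542 to 11725 bases, and with the trend with gene length removed 2 of the 9 listed genes were called as higher and 4 as lower. Without wild-type library 45 or without sponge-29 library 47, 0 were called as higher and 3 as lower. Without wild-type library 44 the counts were 1 and 3. These recounts of the lists were chosen after seeing the data.

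Of 25 symbols of the canonical Wnt pathway, which HBP1 represses in mammals, 5 had an identifier. All 5 were called as lower in sponge-29, where 12.0% of all genes tested were called in either direction. The log2 fold changes were -0.39 for apc and -0.41 for APC2, both of the complex that degrades beta-catenin. Those of the kinase gene gsk3ab, the adaptor dvl1b and the receptor lrp6 were -0.40, -0.38 and -0.44. The 5 genes include some that activate and some that inhibit the pathway. They too come mainly from the study's list of changed genes, so their calls are not independent evidence. With the trend with gene length removed 2 of the 5 were called, 3 without a filter on low counts and without sponge-29 library 46 or 48, 2 without wild-type library 42, 1 without wild-type library 44 or without sponge-29 library 49, and 0 without wild-type library 45 or sponge-29 library 47, although all 5 log2 fold changes stayed negative in these fits.

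Among the predicted miR-29 targets of the study that could be followed, the hbp1 copies had the largest rises. Apart from hbp1, 30 identifiers could be followed, of which 8 had a positive and 22 a negative log2 fold change, with a median of -0.44. A further 6 targets listed by the study had no identifier, so the order and the counts given here leave them out. The same edgeR test called 4 of them as higher (PNPLA3, HYAL4, cdkl1 and CU638738.1) and 19 as lower. Of all genes tested, 6.15% were called as higher and 12.0% in either direction. Next to hbp1 in order were acy1, at 0.84 on the log2 scale (standard error 0.27), which was not called, and CU638738.1, at 0.70 (standard error 0.12). The list was drawn up from these libraries, so the calls and the order are a description. Of the 30, 23 were called with all fish, 18 with the length trend removed, 13 without wild-type library 42 or 44 and 14 without sponge-29 library 49. The count was lowest without wild-type library 45 (1 higher and 5 lower) and without sponge-29 library 47 (1 and 6).

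The study pairs 73 other zebrafish orthologs with exactly 2 tested identifiers, and these gave a frame for the hbp1 pair. Nearly all of the pairs moved in 1 direction, with 22 pairs higher and 48 lower in both identifiers, and 3 in opposite directions. As these identifiers come from the lists of changed genes, this count is a description of that list. The absolute difference of log2 fold change within a pair had a median of 0.08 and went up to 2.41 (BX640461.1), against 0.018 for hbp1, and 10 of the 73 pairs had a smaller one, the smallest being dip2c with 0.003. The hbp1 difference was below the standard error of either hbp1 fold change (0.13 and 0.22), so the place of hbp1 in this order is uncertain. The hbp1 copies were 4.59-fold apart in mean RPKM, against a median of 1.73-fold, and 2 of the 73 pairs were farther apart. In length they were closer than most pairs, 1.07-fold against a median of 1.56-fold, while the identifiers of sash1a were 9.23-fold apart. Whether the 2 identifiers of a pair are separate genes or parts of 1 gene was not tested. By the mean log2 fold change of both identifiers, arrdc2, IER2 and zgc:162356 stood above hbp1 (0.92).

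**Figure D5:**
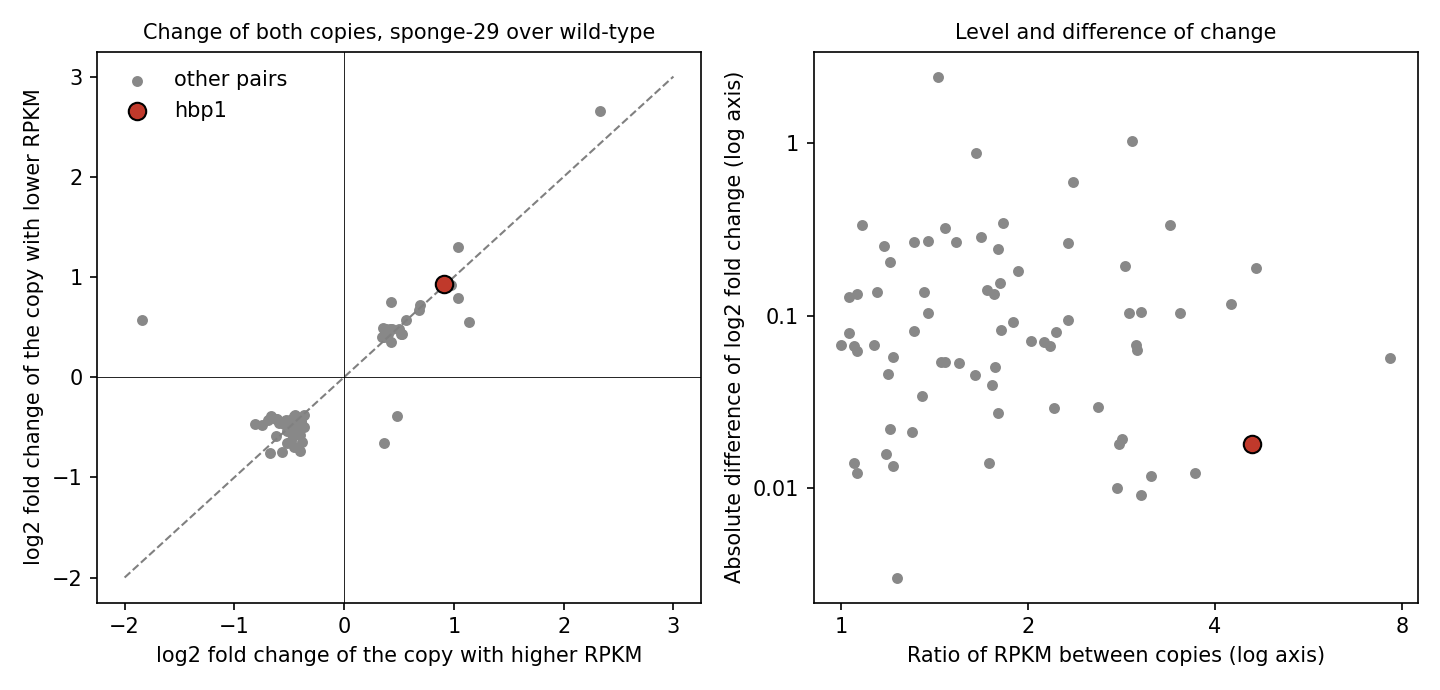
Pairs of N. furzeri gene identifiers that share a zebrafish ortholog, with hbp1 in red and the 73 other pairs in grey. On the left, the log2 fold change of the copy with the lower RPKM is set against that of the copy with the higher RPKM; on the right, the absolute difference of the log2 fold changes is set against the ratio of RPKM on log axes, where hbp1 combines a 4.59-fold ratio of level with a difference of 0.018. Errors of the fold changes are not drawn.

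The 5 genes whose profile was most like that of each copy were not tested for a shared function. Likeness was measured as the mean absolute difference of log2 CPM over the 8 fish, after each profile was set to its own wild-type mean. By this measure the gene nearest to Nfu_g_1_008273 was dusp5, a phosphatase that acts on the kinase ERK, at 0.096. Next came znf238, a zinc-finger repressor of transcription that acts in neural development in mouse, at 0.10. They were followed by Nfu_g_1_017410 at 0.12, junba, a subunit of the AP-1 transcription factor, at 0.13, and Nfu_g_1_013698 at 0.14. Those nearest to Nfu_g_1_011786 were tsc22d2 at 0.10, slc25a42, a mitochondrial carrier of coenzyme A, at 0.11, gpcpd1, a phosphodiesterase of choline phospholipid breakdown, at 0.12, dusp1, a phosphatase of MAP kinases, at 0.12, and Nfu_g_1_002015 at 0.14.

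The copies themselves were 0.17 apart, which placed Nfu_g_1_011786 at rank 22 of 19535 genes by likeness to Nfu_g_1_008273, and Nfu_g_1_008273 at rank 10 by likeness to Nfu_g_1_011786, against a median distance of 0.58 and 0.62 over all genes. This distance includes the change between the groups, from which both copies were chosen. The ranks and the comparison with the median are therefore a description. All 10 of the nearest genes were called as higher in sponge-29, against 6.15% of all genes tested, which their likeness to a raised gene brings with it. The level of dusp5 was 56.2, 55.2, 49.7 and 60.6 CPM in sponge-29 libraries 46 to 49, against 23.9, 36.7, 27.4 and 23.8 CPM in wild-type libraries 42 to 45. That of tsc22d2 was 135, 91.7, 81.2 and 73.4 CPM in sponge-29, against 46.8, 58.6, 34.6 and 50.5 CPM in wild-type, in the same order of libraries. With wild-type library 43 left out, the log2 fold changes of Nfu_g_1_008273 and Nfu_g_1_011786 were 1.03 and 1.13, and with sponge-29 library 46 left out they were 0.84 and 0.74.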

How the data were processed

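Libraries (TruSeq RNA kit, Illumina) were read from 1 end over 50 bases. The authors used TopHat2 2.0.6 for mapping to the killifish genome and featureCounts 1.4.3-p1 for counting, and deposited raw counts per gene for 23546 genes and 8 libraries, without normalization. The authors also deposited RPKM values of the same genes, scaled to gene length and read number. Rules on strand and multiple mapping are not given in the sources used here.

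The test was edgeR 4.0.16 (R 4.3.3) on counts, with filterByExpr at a minimum count of 10, TMM scaling, and a quasi-likelihood fit of sponge-29 against wild-type. p-values of 19536 genes were adjusted after Benjamini and Hochberg (threshold 0.05). Log2 CPM used a prior count of 2. Gene length was taken from counts and RPKM. No library repeated another of its group (chi-square over degrees of freedom at least 10.1). The edgeR p-values set the difference between the groups against the spread between fish within a group. The sign-flip p-values test whether the mean log2 ratio of the copies is 0. Other settings were DESeq2 1.42.0, the likelihood ratio test of edgeR, limma 3.58.1 (voom, and on log2(RPKM + 0.1) and log2(RPKM + 1)), other scalings, filters and thresholds, removal of a length trend (natural spline, 4 degrees of freedom), and each library left out. The steps were tested on simulated counts.

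The members and lists were chosen with earlier results of these data known. Named genes are the members, the 5 genes nearest to each by the mean absolute difference of centred log2 CPM (at most 2 of them without a symbol), list members with an identifier, and the pairs and targets next to hbp1 or at the extremes. Symbols and orthologs come from the study's supplementary lists, which pair 1418 identifiers with a symbol and also hold the authors' fold changes and p-values, which were not used. Of the RefSeq gene table, 0 entries matched an identifier. That table holds 1 entry with the symbol hbp1, and which of the 2 hbp1 identifiers it corresponds to is not known. Neither miR-29 levels nor gene sequences were used here.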

Additional observations from a re-analysis of the deposited data

How the results depend on the processing

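The higher level of both hbp1 genes in sponge-29 kept its direction in all 19 alternative fits of each gene, and both stayed called in the 11 that used all libraries, with log2 fold changes from 0.82 to 0.93 for Nfu_g_1_008273 and from 0.65 (on log2(RPKM + 1), which understates low genes) to 0.96 for Nfu_g_1_011786. With 1 library left out these were 0.83 to 1.03 and 0.74 to 1.13. The number of called genes was 2341, and it was 3784 with DESeq2, 1529 with the length trend removed, 16 at an adjusted p below 0.01 (neither hbp1 gene among them), and between 427 (without wild-type library 45) and 2125 with 1 library left out. Of the called genes 51.3% were higher in sponge-29, against 38.3% with library totals as the only scaling, 42% with limma on RPKM and 63.6% with the length trend removed, and the cause was not tested. The log2 ratio of RPKM between the copies was 2.21 in sponge-29 alone and 2.23 in wild-type alone, where 4 fish allow no p below 0.125 (exact sign-flip permutation test), and 2.17 to 2.26 with 1 library left out. No paired analysis of the groups was possible because the labels name no pairing of sponge-29 with wild-type fish. The minor copy had 135 to 379 counts per fish, with a counting error of 5.14 to 8.61%.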

Other observations

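In 3 of the 73 other pairs that share a zebrafish ortholog the identifiers moved in opposite directions. All 6 identifiers were called by edgeR's quasi-likelihood test. Both identifiers were called in 67 of the 73 pairs, which come from the study's lists of changed genes. Of all genes tested 12.0% were called, so the calls of these 3 pairs are a description. The 3 pairs are named here after their values were seen. For nadkb, annotated as a NAD kinase, Nfu_g_1_013126 stood at 0.36 on the log2 scale (standard error 0.07) and Nfu_g_1_001811 -0.66 (standard error 0.11). For CCNYL1, a cyclin Y-like gene, Nfu_g_1_003653 had 0.48 (standard error 0.08) and Nfu_g_1_005717 had -0.39 (standard error 0.10), at nearly equal lengths of 2400 and 2353 bases. For BX640461.1, Nfu_g_1_009814 had -1.84 (standard error 0.14) and Nfu_g_1_017430 had 0.57 (standard error 0.11).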
